A study of Homo sapiens with 6 samples.

Results

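The genes TRPS1, EIF3H, RAD21, EXT1, SAMD12, TNFRSF11B, MAL2 and ENPP2 lie along a stretch of 6 Mb on the long arm of chromosome 8, chr8:115000001-121000000 in hg19. ATAC-seq peaks were taken at these 8 genes, in the gene body extended by 10 kb to each side, together with the other peaks of the same stretch, which is called the segment below. The genes and the window were chosen by the peak numbers and the raised local background of HET-1A in these same lists, so the backgrounds and peak numbers of the segment are a description and were not tested. The segment held 2 of 168 and 155 of 15979 peaks in HET-1A libraries 1 and 2, 1 of 1255 and 39 of 11671 in KYSE-30 libraries 4 and 6, and 0 of 547 and 0 of 259 in KYSE-150 libraries 7 and 8.

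ATAC-seq uses the Tn5 transposase to cut open chromatin, so that accessible sites yield more sequenced fragments than the DNA around them. The study set 2 esophageal squamous cell carcinoma (ESCC) lines, KYSE-30 and KYSE-150, against HET-1A, an esophageal epithelial line that is labelled non-cancerous, with 2 libraries per line described as biological replicates. The labels name no treatment. HET-1A was grown in BEBM medium and both KYSE lines in RPMI/F12 with serum, so line and medium cannot be told apart. As a check of the labels, 2 of 6 epithelial markers (EPCAM and KRT6A) carried a promoter peak in HET-1A library 2 and 1 of 6 (EPCAM) in KYSE-30 library 6. The squamous keratin gene KRT6A carried none in KYSE-30, and KRT5, KRT14, TP63 and CDH1 carried none in any of the 6 libraries. Promoter peaks of these genes therefore do not show a squamous identity of KYSE-30 in these lists. The simple epithelial keratin gene KRT8 had a promoter peak in both of these libraries, KRT18 in HET-1A library 2, and the mesenchymal marker VIM in KYSE-30 library 6, while ZEB1, COL1A1 and 3 blood cell markers had none. The shortest list holds 168 peaks, so a missing peak in HET-1A library 1, KYSE-30 library 4 or the KYSE-150 libraries does not show closed chromatin.

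The members have unrelated roles. RAD21 is the kleisin subunit of cohesin, the ring complex that holds sister chromatids together and shapes chromatin loops, and TRPS1 is a GATA-type zinc finger repressor. EXT1 is a glycosyltransferase that extends heparan sulfate chains, and EIF3H is a subunit of the eIF3 translation initiation complex. TNFRSF11B encodes osteoprotegerin, the decoy receptor of RANKL. ENPP2 encodes autotaxin, which makes lysophosphatidic acid, and MAL2 is a membrane protein of transcytosis in epithelial cells. SAMD12 encodes a protein with a SAM domain.

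The deposited lists give a fold enrichment for each peak, which sets the tags counted at the summit against those that the surroundings would give, after adding 1 to both. The tags and the local background were recovered from the fold enrichment and p-value. The relative background of a peak is its local background, measured over 10 kb around it, divided by the lowest local background of the library, the genome background. A relative background of 1 therefore means that the 10 kb around the peak held no more tags than the library's floor, which was 167 tags per 10 kb in HET-1A library 2 and 74.4 in KYSE-30 library 6.

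The background was raised across nearly the whole segment in HET-1A library 2. The median relative background of its 155 peaks was 4.76, with a range of 1.70 to 7.24, against 1.45 over all peaks of the library. A relative background of at least 2 was found at 153 of the 155 peaks, where 27.1% of all peaks of that library reach it, and one of at least 4 at 109 peaks, where 6.31% do. The 2 peaks of HET-1A library 1 had relative backgrounds of 4.17 and 6.67, against a median of 1.28 over its list, in which 23.8% of peaks reach 2. In KYSE-30 library 6 the median of the 39 peaks was 1.42, with a range of 1.00 to 3.39, beside 1.44 over all its peaks. There 9 of 39 peaks reached 2, beside 20.4% of the list, and 0 reached 4, beside 1.34%. The single peak of KYSE-30 library 4 stood at 1.06, beside a median of 1.42 over that list, of which 20.8% reach 2.

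**Figure D1:**
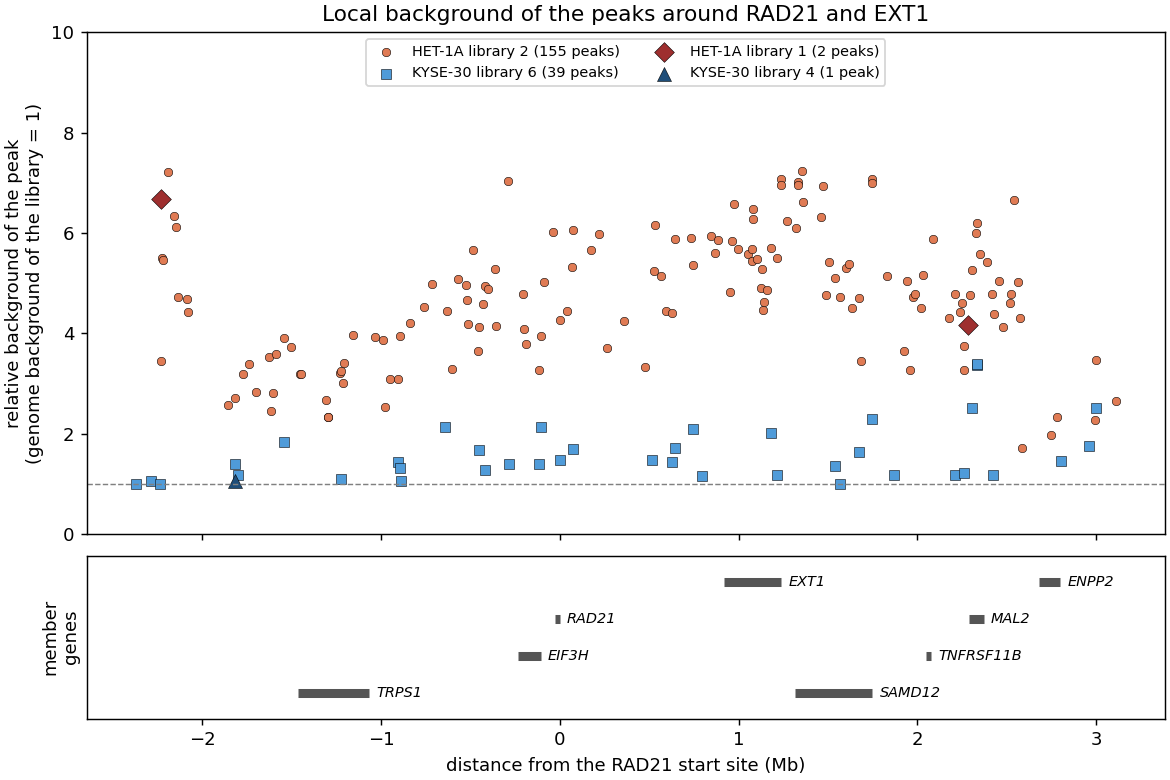
Relative background of each peak of the segment (vertical axis, genome background of the library set to 1) against its distance from the RAD21 start site in Mb (horizontal axis), with the bodies of the 8 member genes drawn to scale underneath. Peaks of HET-1A library 2 spread between 1.70 and 7.24 and fall off beyond MAL2, while peaks of KYSE-30 library 6 stay between 1.00 and 3.39.

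The median of the segment's peaks, averaged over the 2 libraries of a line, was 5.09 ± 0.465 (SD, n = 2) in HET-1A and 1.24 ± 0.260 (SD, n = 2) in KYSE-30. Both HET-1A libraries lay above both KYSE-30 libraries. An exact permutation test of 2 against 2 libraries cannot give a two-sided p under 0.33, and none was run. The HET-1A library 1 value rests on 2 peaks and the KYSE-30 library 4 value on 1, so each SD compares medians over different sites. At the only region listed by both HET-1A libraries, the relative backgrounds were 6.67 in library 1 and 3.45 in library 2, further apart than these medians.

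The share of a library's peaks that fell in the segment followed the same order. The segment makes up 0.194% of the genome. Its share was 1.19% in HET-1A library 1 (0.327 to 4.24%, Wilson 95% interval) and 0.970% in library 2 (0.829 to 1.13%). In KYSE-30 the shares were 0.0797% in library 4 (0.0141 to 0.450%) and 0.334% in library 6 (0.245 to 0.456%). For KYSE-150, 0 of 547 and 0 of 259 peaks allow shares of up to 0.548% and 1.16% by a limit of 3 counts, so a share like that of KYSE-30 was not detectable at these list lengths. These intervals and limits cover counting error only. In HET-1A library 2 the segment carried 25.8 peaks per Mb, against 5.16 over the genome. The share depended on which peaks were kept. With only peaks whose fold enrichment reached the smallest one at the genome background of the library, it was 0.464% in HET-1A library 2 and 0.341% in KYSE-30 library 6. With the 168 peaks of smallest p-value from each library it was 8.93% (5.49 to 14.2%) in HET-1A library 2 and 0% (0 to 2.24%) in KYSE-30 library 6. HET-1A library 1, whose whole list holds 168 peaks, had 1.19% (0.327 to 4.24%), so the HET-1A replicates differed at equal length. Ranking by p-value favours peaks over a raised background. The median relative background of the 168 peaks was 3.68 in HET-1A library 2 and 2.64 in KYSE-30 library 6, against 1.45 and 1.44 over the lists.

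Peak number by gene was led by EXT1 and SAMD12. EXT1 had 19 peaks in HET-1A library 2 and 2 in KYSE-30 library 6. SAMD12 had 18 and 4 peaks in these libraries, and TRPS1 had 10 and 1. Only 0.109% of the 20136 protein-coding genes had 10 or more peaks in HET-1A library 2, and these 3 members were among those 22 genes, with EXT1 ranked 6 and SAMD12 ranked 7. In KYSE-30 library 6, 0 members and 0.00993% of genes reached 10. All 3 are long genes, of 317, 433 and 401 kb, and per 100 kb of searched sequence EXT1 carried 5.63 peaks, SAMD12 3.98 and TRPS1 2.37. The short gene RAD21, of 28.8 kb, carried 4.09 per 100 kb from 2 peaks, and MAL2 carried 4.97 from 5 peaks. The order by density thus differed from the order by count.

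**Figure D2:**
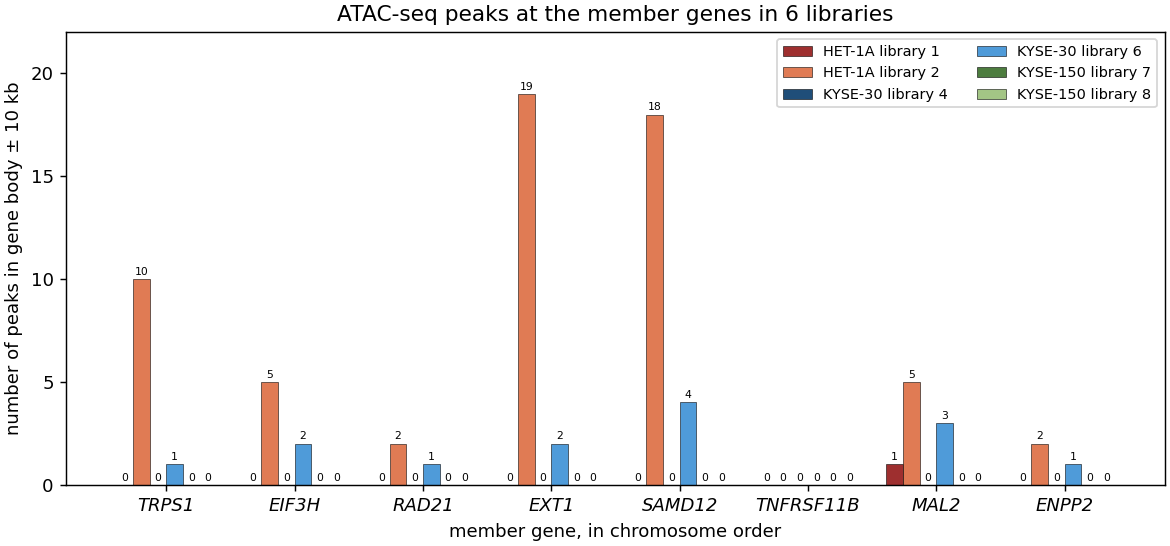
Number of peaks in the body of each member gene with 10 kb to each side (vertical axis) in the 6 libraries (bars), with genes in chromosome order along the horizontal axis. HET-1A library 2 has 19 peaks at EXT1 and 18 at SAMD12, KYSE-30 library 6 has at most 4 at any member, and KYSE-30 library 4 and both KYSE-150 libraries have 0 throughout.

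At least 1 peak was found at 7 of 8 members in each of the long lists, HET-1A library 2 and KYSE-30 library 6, beside 51.2% and 41.6% of all protein-coding genes. In HET-1A library 1 a single member of 8, MAL2, carried one, beside 0.472% of all genes. KYSE-30 library 4, KYSE-150 library 7 and KYSE-150 library 8 had a peak at 0 of 8, beside 6.54%, 2.90% and 0.899% of all genes. TNFRSF11B was without a peak in every library. In HET-1A library 2 the nearest peak, chr8:119974193-119974469, began 69 bp beyond the 10 kb flank of TNFRSF11B, so its count depends on the width of the flank.

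The chromatin regulators and the translation factor are taken first. RAD21 (chr8:117858173-117887015, minus strand) had a promoter peak in both long lists, with its summit 92 bp upstream of the gene's 5′ end in HET-1A library 2 and 100 bp upstream in KYSE-30 library 6. The fold enrichment of this peak was 5.37 in HET-1A library 2 and 6.56 in KYSE-30 library 6. Its summit held 81 tags over a relative background of 4.27 in HET-1A and 20 tags over 1.48 in KYSE-30. The 2 libraries thus listed the RAD21 promoter over unlike local backgrounds, 14.28 tags per 200 bp in HET-1A and 2.2 in KYSE-30. The 1 added to both counts lowers the fold enrichment more at the smaller background, so 5.37 and 6.56 are not on one scale. A second peak of HET-1A library 2, beyond the 3′ end of RAD21 in an intron of UTP23, had a fold enrichment of 2.04 over a relative background of 6.01.

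EIF3H (chr8:117654369-117779164, minus strand) had 5 peaks in HET-1A library 2 and 2 in KYSE-30 library 6. Its strongest peak in both lists was at the promoter that it shares with UTP23, a gene of ribosome assembly that starts on the other strand. There the fold enrichment was 7.34 with 103 tags in HET-1A library 2 and 7.45 with 30 tags in KYSE-30 library 6, and the relative backgrounds were 3.94 and 2.12. A peak at an inner start site had fold enrichments of 5.96 and 6.21 in these 2 libraries. The other 3 peaks of HET-1A library 2 were intronic, with fold enrichments of 2.25 to 2.64, and overlapped no peak of KYSE-30 library 6.

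TRPS1 (chr8:116420724-116821899, minus strand) had the lowest backgrounds among the members with 5 or more peaks. Its 10 peaks in HET-1A library 2 had relative backgrounds between 2.33 and 3.97, with a median of 3.18, and fold enrichments between 2.50 and 5.47. No peak was found in any library at the 5′ end of the TRPS1 gene model, 116821899, which is the end of its longest extent. The 2 peaks counted as promoter peaks in HET-1A library 2 lay at other annotated TRPS1 start sites, 149 kb and 144 kb downstream of that 5′ end. Which start site is used in these lines was not measured. The only TRPS1 peak of KYSE-30 library 6 was intronic, with a fold enrichment of 4.17 over a relative background of 1.10.

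EXT1 (chr8:118806729-119124065, minus strand) had the most peaks, and all 19 of HET-1A library 2 had a relative background of at least 4, between 4.46 and 7.08. Of these, 16 were intronic. A pair of peaks lay at the 5′ end, with summits 99 and 1348 bp upstream, fold enrichments of 2.92 and 3.13, and 71 and 75 tags. No library of KYSE-30 or KYSE-150 listed a peak at this 5′ end. The strongest EXT1 peak, in an intron 21.9 kb downstream of the 5′ end, had a fold enrichment of 5.52 with 106 tags in HET-1A library 2, and overlapped a peak of KYSE-30 library 6 with 3.99 and 10 tags. Relative backgrounds at this site were 5.50 and 1.18. A second intronic site shared by both libraries had fold enrichments of 4.69 and 4.52.

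SAMD12 (chr8:119201694-119634351, minus strand) reached the highest background of the segment, 7.24 in an intron, with a median of 5.76 over its 18 peaks in HET-1A library 2. Its 4 peaks in KYSE-30 library 6 all overlapped a HET-1A peak. At the inner start site the fold enrichment was 5.11 in HET-1A library 2 and 5.63 in KYSE-30 library 6, over relative backgrounds of 4.73 and 1.00. At the 5′ end, HET-1A library 2 listed a pair of peaks with fold enrichments of 2.39 and 2.67, and KYSE-30 library 6 listed 1 peak with 4.75. The relative backgrounds there were 7.07 and 6.99 in HET-1A and 2.30 in KYSE-30.

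MAL2 (chr8:120177273-120257913, plus strand) was the only member with a peak in 3 libraries. HET-1A library 1 listed a peak 7709 bp upstream of the gene, with a fold enrichment of 3.05, 26 tags at the summit and a relative background of 4.17. The 5 peaks of HET-1A library 2 had relative backgrounds between 4.76 and 6.20 and fold enrichments between 2.34 and 3.42. The 3 peaks of KYSE-30 library 6 had relative backgrounds of 2.50, 3.36 and 3.39, above those of every other member in that library, with fold enrichments of 4.97 to 5.72. The summits of the peaks with 3.36 and 3.39 lie at 120217501 and 120219466, so their 10 kb surroundings overlap and are not separate measures. MAL2 was the only 1 of 7 members with a median of at least 2 in KYSE-30 library 6, where 19.5% of genes with a peak reach it, whereas all 7 did so in HET-1A library 2, where 26.3% do.

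ENPP2 (chr8:120569326-120685693, minus strand) stood apart from the other members in HET-1A library 2. Its 2 peaks had relative backgrounds of 1.97 and 2.33, below the lowest peak of every other member except TRPS1, whose lowest was also 2.33. Their fold enrichments were 3.68 and 5.45, and neither lay at an ENPP2 start site. KYSE-30 library 6 had 1 peak, 1489 bp upstream of the 5′ end, with a fold enrichment of 4.11 over a relative background of 1.45. Among the 10300 protein-coding genes with a peak in HET-1A library 2, ENPP2 ranked 2210 by median relative background. SAMD12, EXT1, MAL2 and RAD21 ranked 38, 40, 41 and 50, EIF3H ranked 185 and TRPS1 ranked 475. These ranks describe the background for which the segment was chosen, and that of RAD21 rests on 2 peaks.

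Among adjacent peaks of the segment that lie 10 to 50 kb apart in HET-1A library 2, the largest step lay between MAL2 and ENPP2. In HET-1A library 2 the peak with its summit at position 120463044 had 718 tags in its 10 kb (Poisson 95% interval 666 to 772), and the next peak, at 120474174 and 11.1 kb away, had 285 (253 to 320). The relative background fell from 4.29 to 1.70 between them, a ratio of 2.52. Over 5490 pairs of adjacent peaks that lie 10 to 50 kb apart in this library the median ratio was 1.18, 2.13% of pairs reached 2, and this pair ranked 41. It was picked as the largest of 86 such pairs in the segment. As the only 1 to reach 2, it gives a share no higher than the 2.13% of the library. CCN3, a matricellular protein gene on the near side, had a peak with a relative background of 6.66. DEPTOR, an mTOR inhibitor gene on the far side that runs across the window end, had 4 peaks with a median of 2.69. Backgrounds on the 2 sides overlapped, with 3.46 at the DEPTOR 5′ end and 3.27 at the peak with its summit at 120147775.

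Other protein-coding genes of the segment had backgrounds like those of the members next to them, in part because the same peaks count for several genes. In HET-1A library 2, UTP23 shares the peak with its summit at 117778691 with EIF3H and the one at 117851014 with RAD21. AARD and SLC30A8 share the one at 117958649. In HET-1A library 2 the medians were 5.03 at UTP23, 5.69 at AARD, 5.82 at the zinc transporter gene SLC30A8, 5.88 at the Mediator subunit gene MED30 and 4.41 at the collectin gene COLEC10. TAF2, a TFIID subunit gene, and DSCC1, a gene of cohesion establishment, had no peak in that library. KYSE-30 library 6 had 1 peak, with a fold enrichment of 8.33, that counts for both TAF2 and DSCC1. Of the 155 peaks of HET-1A library 2, 61 were at members, 14 at other genes only and 80 at no protein-coding gene, and the last had a median relative background of 4.51, beside 5.26 for those at members.

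Along the chromosome, the 6 windows of 1 Mb in the segment had median relative backgrounds of 5.46, 3.18, 4.59, 5.63, 5.28 and 4.60 in HET-1A library 2, in chromosome order. They ranked between 11 and 26 among 1492 windows with at least 3 peaks, by the background for which the segment was chosen. The lowest of the 6 was the window that holds TRPS1. In KYSE-30 library 6 the same windows had medians of 1.00, 1.36, 1.48, 1.48, 1.34 and 1.75, and ranked between 373 and 1668 of 1676.

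The start of the raised stretch could not be placed closely in HET-1A library 2, because no peak was listed in the 5.31 Mb before the first one of the segment. The last peak before this gap had a relative background of 1.00, and the 20 Mb before the window had a median of 1.00 over 41 peaks. The first peak inside, chr8:115655310-115655962, had 3.45. At the other end no such gap was seen, since the last peak inside had 2.65 and the first one outside, chr8:121057228-121057494, had 2.74. Over the next 7 Mb the median was 2.45 from 144 peaks, and in the 2 Mb after that it rose to 13.4 from 183 peaks. The raised stretch therefore ran on past the window at a lower level. With at least 3 peaks and a median of at least 2 required, the unbroken run of windows around RAD21 covered 7 windows, from 115000001 to 122000000. It covered 15 windows, up to 130000000, when a median of 1.5 was enough, and 4 windows, from 117000001 to 121000000, when 4 was required. The run covered 0 windows in KYSE-30 library 6 at each of these thresholds.

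**Figure D3:**
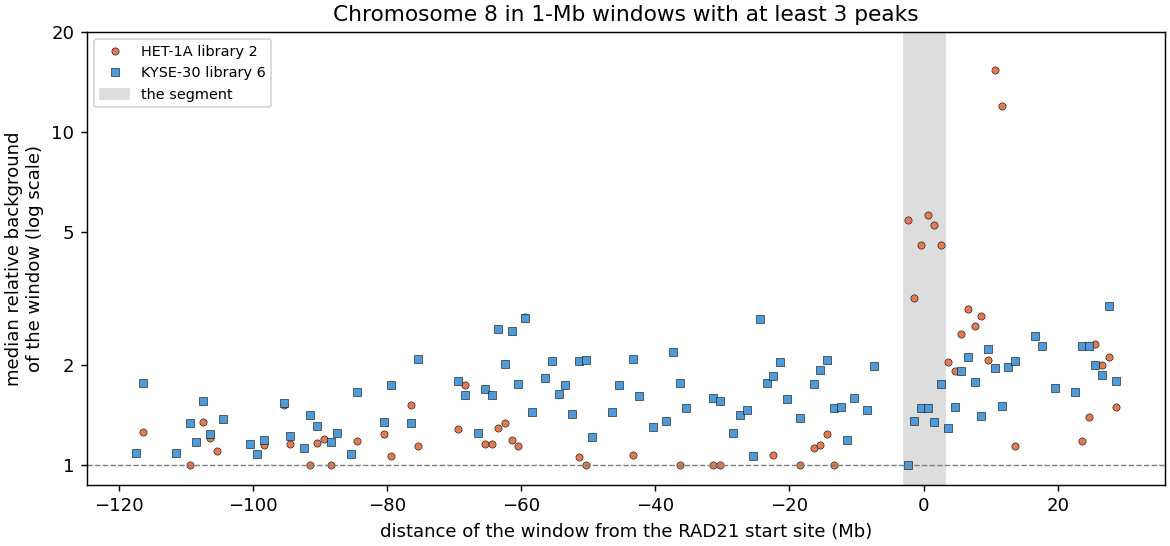
Median relative background (vertical axis, log scale) of 1-Mb windows of chromosome 8 with at least 3 peaks, against the distance of the window from the RAD21 start site in Mb, for HET-1A library 2 and KYSE-30 library 6. The grey band is the segment, where HET-1A library 2 has medians of 3.18 to 5.63 and KYSE-30 library 6 of 1.00 to 1.75.

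Peaks over the raised background had low fold enrichments. The median was 2.81 in HET-1A library 2, with a range of 1.95 to 7.34, against 4.22 over the whole list, while the median tag count at the summit was 47 against 25. In KYSE-30 library 6 the median fold enrichment was 5.63, with a range of 3.99 to 9.80, against 5.47 over the list, and the median summit had 18 tags against 17. The lowest fold enrichment of any HET-1A library 2 peak at the genome background was 2.99. In the segment, 89 of 155 peaks (57.4%) were below that value, beside 11.0% of the whole list. In KYSE-30 library 6 no peak of the segment was below the corresponding value of 3.62. A peak over a higher background passes the q-value limit at a lower fold enrichment. The HET-1A share below 2.99 therefore goes with the raised background for which the segment was chosen, and is no separate result. Among the members, 25 of 61 peaks in HET-1A library 2 had a fold enrichment of at least 2.99, with 9 of 19 left at EXT1 and 5 of 18 at SAMD12.

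**Figure D4:**
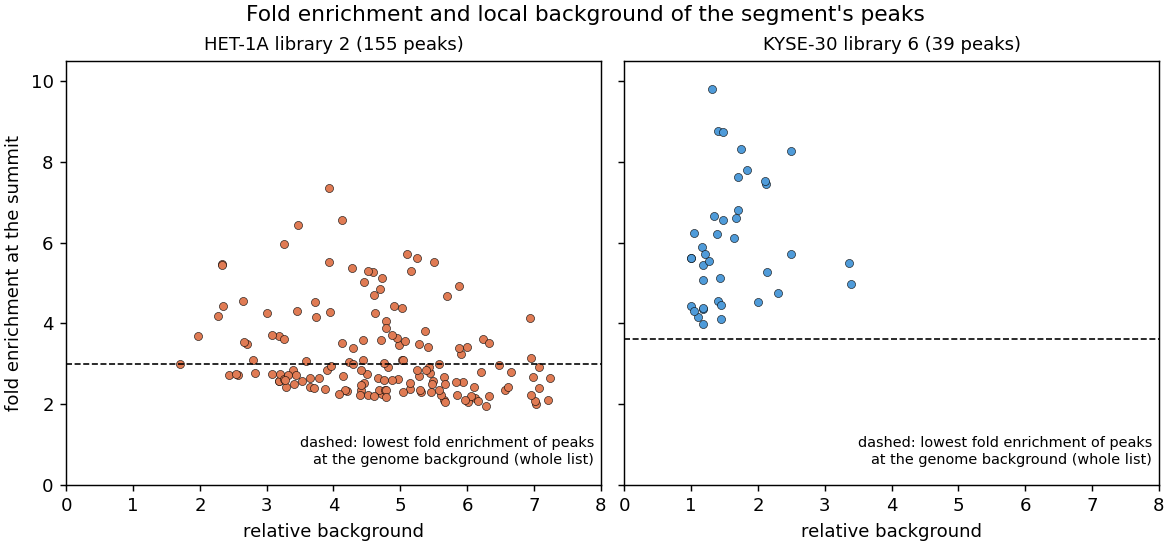
Fold enrichment at the summit (vertical axis) against relative background (horizontal axis) of the segment's peaks in HET-1A library 2 (left) and KYSE-30 library 6 (right). The dashed lines are the lowest fold enrichments of peaks at the genome background, 2.99 and 3.62, and 89 of 155 HET-1A peaks lie under the line while 0 of 39 KYSE-30 peaks do. Peaks over a higher background pass the q-value limit at a lower fold enrichment.

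Sites called in both long lists allow a comparison at the same DNA. The segment held 21 such sites of 4539 in all. At these 21 sites the relative background of HET-1A library 2 divided by that of KYSE-30 library 6 had a median of 2.85, with a range of 1.39 to 4.73. It was at least 2 at 18 of 21 sites, beside 2.52% of the 4518 sites elsewhere, where the median was 0.860. The ratio of fold enrichments had a median of 0.779 in the segment and 0.837 elsewhere. For the summit tags divided by the genome background the ratio was 1.73 in the segment and 0.630 elsewhere. The segment was chosen by the raised background of HET-1A, so the higher background ratio at its shared sites restates that choice. The fold enrichment ties the summit tags to the background, so the ratio of summit tags is no separate result. The listed fold enrichments of the 2 libraries differed less in the segment, but they are not on one scale. The 1 added to both counts lowers them more in KYSE-30 library 6, where the genome background is 1.49 tags per 200 bp, against 3.34 in HET-1A library 2.

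**Figure D5:**
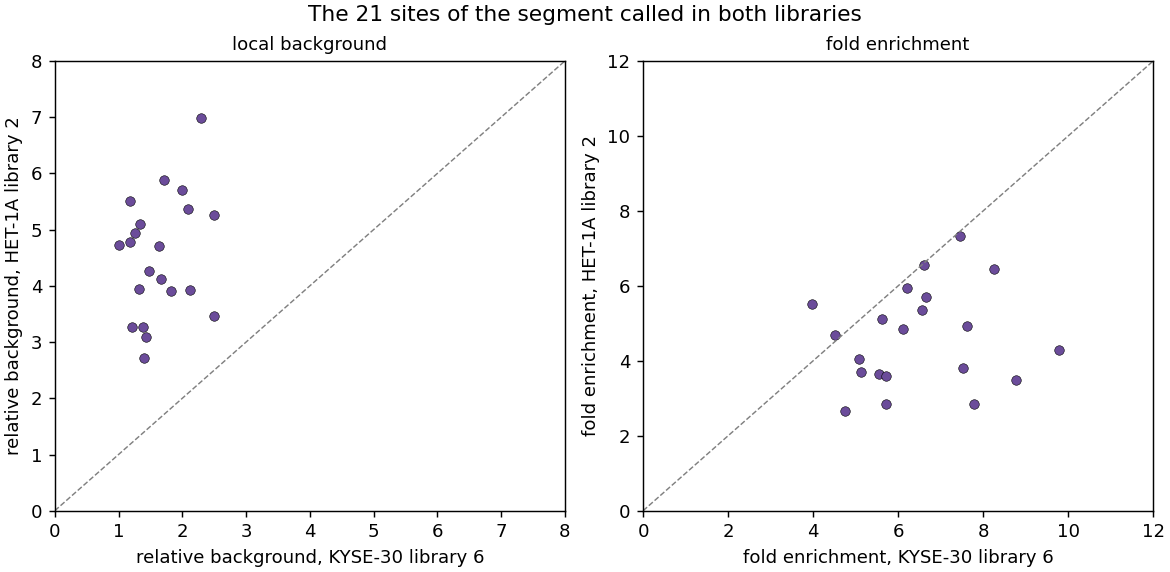
The 21 sites of the segment called in both HET-1A library 2 (vertical axes) and KYSE-30 library 6 (horizontal axes), by relative background (left) and by fold enrichment (right), with dashed lines of equal values. All 21 sites lie above the line for background, while 2 of 21 lie above it for fold enrichment.

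Merging the peaks of the 6 libraries gave 173 regions in the segment. Of these, 132 (76.3%) had a peak in HET-1A library 2 only, beside 46.6% of all 23972 merged regions. A peak in KYSE-30 library 6 only was found at 18 regions (10.4%, beside 28.7%), and 20 regions (11.6%, beside 16.3%) had peaks in exactly these 2 libraries. One region, chr8:116068269-116068889, had peaks in HET-1A library 2 and both KYSE-30 libraries, and was the only one listed by both replicates of KYSE-30. Another, chr8:115655310-115656143, was the only one listed by both replicates of HET-1A, with relative backgrounds of 6.67 in library 1 and 3.45 in library 2. Since HET-1A library 1 listed 2 peaks and KYSE-30 library 4 listed 1 peak in the segment, these lists could show hardly any region in both replicates of a line.

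The peaks of the segment were mostly away from promoters, taken as 3 kb to each side of a start site. In HET-1A library 2, 14.2% (22 of 155) were promoter peaks, beside 53.1% of the list, and 44.5% were intronic and 38.1% intergenic, beside 24.6% and 19.9%. In KYSE-30 library 6, 30.8% (12 of 39) were promoter peaks, beside 55.1% of the list. A promoter peak was found at 6 of 8 members in HET-1A library 2, all but TNFRSF11B and ENPP2, where 35.4% of all genes have one, and at 5 of 8 in KYSE-30 library 6, all but TRPS1, EXT1 and TNFRSF11B, where 28.7% do. The other 4 libraries had one at 0 of 8 members, beside 0.0944% of all genes for the short HET-1A list, 3.88% for KYSE-30 library 4, and 1.79% and 0.363% for libraries 7 and 8 of KYSE-150. At MAL2 the HET-1A library 2 peak nearest to the 5′ end had its summit 2828 bp inside the gene. The 2 MAL2 promoter peaks of KYSE-30 library 6 lay at inner start sites, 40.2 and 42.2 kb downstream of the 5′ end. The median GC content of the peaks was 42.2% in the segment and 55.1% over the list in HET-1A library 2.

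The AP-1 core motif, TGACTCA or TGAGTCA on either strand, occurred in 42 of the 155 segment peaks from HET-1A library 2 (27.1%, with a 95% Wilson range of 20.7 to 34.6%), beside 24.7% of the list. Away from promoters the shares were 29.3% of 133 peaks (22.3 to 37.6%) and 36.0% of the list. In KYSE-30 library 6 the motif was in 13 of 39 peaks (33.3%, 20.6 to 49.0%), beside 29.7% of the list, and away from promoters in 40.7% of 27 peaks (24.5 to 59.3%), beside 47.3% of the list. At the members of HET-1A library 2, SAMD12 had it in 8 of 18 peaks, EXT1 in 4 of 19, MAL2 in 3 of 5, TRPS1 in 2 of 10 and EIF3H in 1 of 5. It was in no peak of RAD21 or ENPP2. A match of these 7 letters is a description of the sequence and not a binding site.

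Promoter peaks at genes that work with the members were counted beside the 35.4% and 28.7% of all genes that have one in the long lists. Of 14 genes of cohesin and its regulators, 6 had a promoter peak in HET-1A library 2 and 9 in KYSE-30 library 6. CTCF, which marks loop anchors, had one in 3 libraries, including KYSE-150 library 7, and STAG1, ESCO1, ESCO2 and MAU2 had one in both long lists. Of 12 other eIF3 subunits, 6 and 6 had one, with EIF3A, EIF3D and EIF3F in both lists. Of 18 genes of heparan sulfate synthesis, 6 and 6 had one, and the sulfotransferase gene HS2ST1 had it in both. Of 9 genes of lysophosphatidic acid signalling 2 and 1 had one, and of 3 genes of the osteoprotegerin axis 0 and 0. The median relative background of the cohesin genes with a peak was 1.67 in HET-1A library 2, beside 4.27 and 6.01 at the 2 peaks of RAD21.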

How the data were processed

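ATAC-seq was analysed in 6 libraries, 2 per line, grouped by their titles. Per the labels and the methods of the study, the authors mapped reads to hg19 with Bowtie2 2.3.3.1, marked duplicates with Picard 2.2.1, removed blacklisted regions with bedtools 2.7.1, corrected positions for the Tn5 cut, used only fragments shorter than 100 bp and ran MACS2 2.1.0.20160309 on each library at a q-value of 0.05, without a control library. The deposited lists give a score, a fold enrichment (a ratio), and −log10 of the p-value and q-value. The score was not used. Without read totals, the depth of a library is known only as its genome background, 1.49 to 3.34 tags per 200 bp, and shorter lists give wider intervals.

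Tags and local background were recovered from the fold enrichment and p-value under the Poisson model of MACS2, for 99.6 to 100% of peaks within 0.001 in −log10 p, and the recovery was tested on simulated data. GENCODE 44 lifted to hg19 gave genes and start sites. A peak counts for every gene it overlaps. Shares have Wilson intervals. No test between lines was run, since 2 libraries against 2 cannot give an exact two-sided p under 0.33. The genes named are the 8 members, the other protein-coding genes in the window, partner genes with a promoter peak in at least 2 libraries, and the cell type markers used to check the labels. The members and lists were chosen with earlier results of these data known. Alternatives were stricter q-values, other flanks and promoter widths, lists of equal length, other bases and window sizes, and each library left out. Python 3.11.15, numpy 2.4.6, pandas 2.3.3, scipy 1.17.1 and matplotlib 3.10.9 were used.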

Additional observations from a re-analysis of the deposited data

How the results depend on the processing

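The segment's median relative background in HET-1A library 2 was at least 4.44 under every alternative except the median of all peaks as base, where it was 3.28, against 0.991 in KYSE-30 library 6. The alternatives chosen after the data were seen (without the summit's own tags, no other peak within 10 kb, a minimum fold enrichment) include the lowest of these, 4.44. A minimum fold enrichment equal to the smallest at the genome background lowered the HET-1A library 2 share to 0.464% and the peaks at the members from 61 to 25, while KYSE-30 library 6 kept 14. With 168 peaks per library, the share was 8.93% in HET-1A library 2 and 0% in KYSE-30 library 6. These peaks were ranked by p-value, which favours raised backgrounds. At q-values under 0.001, the HET-1A mean share was 0.878%, its mean background 5.73, and in library 2 the median over members 4.27 and the median fold enrichment 2.98. In HET-1A library 1 only the segment peak with a relative background of 6.67 passes that limit, while the one with 4.17 drops out. Promoters of 1 kb gave 8.39% promoter peaks in HET-1A library 2. Thresholds of 1.5 and 4 gave runs of 15 and 4 windows around RAD21. A value is called moved past the spread of the 2 libraries of a line (10% where only 1 library has a value), past its interval for a share, or past 1.5 times for a count.

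Leaving out 1 library at a time, the peaks at the members ranged from 1 to 61 in HET-1A (mean 31) and from 0 to 14 in KYSE-30 (mean 7), and members with a promoter peak from 0 to 6 and from 0 to 5, so these counts rest on HET-1A library 2 and KYSE-30 library 6. The median background ranged from 4.76 to 5.42 in HET-1A and from 1.06 to 1.42 in KYSE-30. At single genes, flanks of 50 kb gave TNFRSF11B 3 peaks and MAL2 10 peaks in HET-1A library 2, and without flanks RAD21 had 1. No paired analysis was possible because the groups share no replicate numbers and the results come from no test. The lists hold called peaks only, so the background between peaks was not measured.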
